A study of Rattus norvegicus with 27 samples.

Results

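The cytosolic ribosomal protein genes were followed in cultured Schwann cells, the glia that wrap axons of peripheral nerves, before, during and after exposure to dibutyryl cyclic AMP. Members were the rows of the cell messenger RNA table whose names begin with Rpl or Rps and go on with the number of a ribosomal protein, together with Rplp0, Rplp1, Rplp2 and Rpsa, leaving out the Rps6k kinases. This rule took 83 of 17315 rows and used no measured value. Of these, 47 encode large subunit proteins, 33 small subunit proteins and 3 the P stalk. Fau, which encodes a ribosomal protein fused to a ubiquitin-like protein, lies outside the naming rule and is described apart.

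The cells were primary rat Schwann cells obtained commercially and used at low passage. Dibutyryl cyclic AMP (dbcAMP) is a form of cyclic AMP that enters cells, and undifferentiated cells were not given it. Differentiated cells were starved overnight in low serum and given 1 mM dbcAMP for 72 h in DMEM with 1% serum. Dedifferentiated cells were treated likewise, after which dbcAMP was replaced for 72 h by complete medium with 10% serum, forskolin (which raises cellular cyclic AMP) and 10 ng/mL neuregulin, a Schwann cell growth factor. The serum was depleted of exosomes and both media held penicillin-streptomycin, and the medium of the undifferentiated cells is given only as lacking dbcAMP. Stage and medium changed together and cannot be told apart. Each stage had 3 libraries, which the labels call biological replicates without naming separate animals. The p-values below measure the spread between these libraries, which may be partly technical.

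Cytosolic ribosomes consist of a small subunit that decodes the messenger RNA and a large subunit that joins amino acids, each built from ribosomal RNA and a fixed set of proteins. The P stalk of the large subunit, made of Rplp0 with Rplp1 and Rplp2, recruits elongation factors. Messages of most ribosomal proteins start with a C followed by an uninterrupted stretch of pyrimidines, the 5′ terminal oligopyrimidine (TOP) motif, through which mTOR and LARP1 control their translation and stability. Myc raises transcription of many genes for ribosome production. Schwann cells respond to cyclic AMP, together with axonal signals, by entering the myelinating programme.

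Library totals lay between 10058735 and 16212278 estimated counts, and between 11278 and 11831 genes were detected per library. Levels are given as CPM, the gene's counts scaled to a common library total, and 3 counts corresponded to 0.185 to 0.298 CPM. The 6 Schwann cell markers S100b, Sox10, Ngfr, Erbb3, Cdh19 and Gfra3 all had means above 10 CPM. Their summed levels ranged from 6829 to 8203 CPM in undifferentiated, 4181 to 4562 in differentiated and 7479 to 8026 in dedifferentiated libraries. Of 8 fibroblast markers 4 exceeded 10 CPM and Lum was at 0 in every library. Their summed level ranged from 24544 to 29246, 12690 to 16484 and 16351 to 19898 CPM in the stages in that order. Of 6 neuronal markers 2 exceeded 10 CPM, with sums of 119 to 306, 979 to 1336 and 225 to 312 CPM, and none of the 6 was at 0 throughout. The 7 macrophage markers summed to at most 5.17 CPM with Aif1 and Adgre1 at 0, the 5 endothelial markers to at most 22.5 CPM with Cdh5 at 0, and the 3 T cell markers to at most 0.199 CPM. Single markers of a list went opposite ways, which the sums do not show. In the edgeR test used below, 2 of the 6 Schwann cell markers rose with dbcAMP and 4 fell. Of 5 tested fibroblast markers 2 rose and 2 fell, and of 2 tested neuronal markers 1 rose and 1 fell. The part of these markers in the results below was not tested. In bulk RNA, fewer cells of a type and less RNA per cell cannot be told apart.

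One library stood apart in the genes studied here. In dedifferentiated replicate 1, 78 of the 81 tested members were lower than in both other dedifferentiated libraries, against 43.0% of all tested genes. The median member lay 0.38 below the mean of the other 2 libraries on a log2 scale with 1 CPM added, and the median of all genes 0.02 below. In the differentiated stage replicate 1 was also the lowest library for 70 of 81 members, with a median of 0.13 below. Where leaving out dedifferentiated replicate 1 ended the call of a member named with a value, or moved a called value by over 1.5 times, the change or its adjusted p without that library is also given.

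Ribosomal protein genes took a larger part of the messenger RNA counts in differentiated cells than in either other stage. Their share of all counts was 3.00%, 2.98% and 2.90% in the undifferentiated replicates 1 to 3, with a mean of 2.96% ± 0.0505 (SD, n = 3). It was 3.50%, 3.87% and 3.72% in the differentiated replicates, with a mean of 3.70% ± 0.185 (SD, n = 3). After dbcAMP withdrawal it was 2.29%, 2.98% and 2.98%, with a mean of 2.75% ± 0.398 (SD, n = 3). Every differentiated library lay above every library of the other stages. Dedifferentiated replicates 2 and 3 lay within the range of the undifferentiated libraries, and replicate 1 lay below all other libraries.

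**Figure D1:**
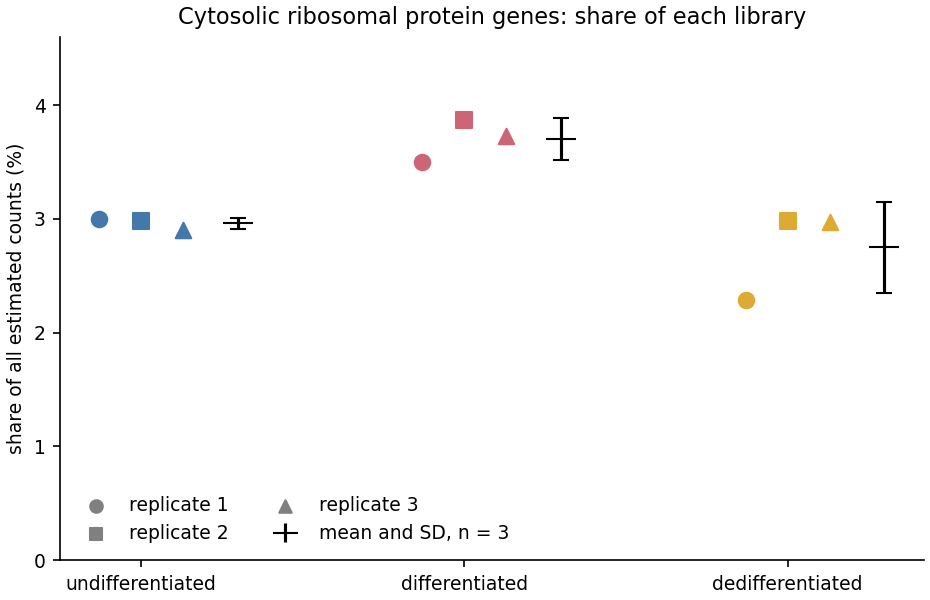
Share of all estimated counts (percent, vertical axis from 0) taken by the 83 cytosolic ribosomal protein genes in each library, by stage; markers give the replicate, and the black bar with its whiskers the mean and SD of 3 libraries. The differentiated libraries sit between 3.50% and 3.87%, above the other 6, and dedifferentiated replicate 1 is the lowest at 2.29%.

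Both subunits followed this course. Large subunit genes, P stalk included, took 1.76% ± 0.0296, 2.20% ± 0.115 and 1.65% ± 0.226 of counts in undifferentiated, differentiated and dedifferentiated cells (SD, n = 3 each). Small subunit genes took 1.20% ± 0.0221, 1.50% ± 0.0702 and 1.10% ± 0.172. The ratio of large to small subunit counts was 1.46 ± 0.0111, 1.47 ± 0.0113 and 1.50 ± 0.0323 (SD, n = 3 each), so the mean differed between stages by little more than the spread within them. Its highest value, 1.53, belonged to dedifferentiated replicate 1.

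The first comparison asked which members changed when dbcAMP was given. Of the 81 members tested, 39 rose and 0 fell in differentiated against undifferentiated cells (edgeR quasi-likelihood test, Benjamini-Hochberg adjusted p under 0.05 over all 10372 genes tested). Over all tested genes, 31.7% rose and 27.9% fell. The median member changed by 0.28 on the log2 scale, a fold of 1.21, against a median of 0.05 over all genes, and 74 of the 81 had a log2 change above 0. The changes were small and close together, from -0.28 to 0.67, and none reached a log2 size of 1, whereas 2679 of all tested genes did. In 67 members all 3 differentiated libraries were above all 3 undifferentiated ones, and in 2 all were below, against 38.9% and 27.4% of all tested genes. At an unadjusted p under 0.05, edgeR took 42 members as higher and 0 as lower, against 6606 of all 10372 genes in either direction. DESeq2 called 38 higher and 0 lower, against 30% and 29.3% of all genes.

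Among the large subunit genes 25 of 45 tested rose, with a median log2 change of 0.32. Among the small subunit genes 14 of 33 rose, with a median of 0.28. None of the 3 P stalk genes passed the test, with a median of 0.14. The difference between these groups was not tested.

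The 4 members with the smallest p were Rpl6, Rpl18, Rps18 and Rpl4. Rpl6, a large subunit protein, stood at 492, 498 and 463 CPM in undifferentiated libraries, 775, 849 and 795 in differentiated ones and 391, 503 and 484 in dedifferentiated ones. The differentiated libraries lay far above the other 6, which overlapped. Rpl6 rose 1.59-fold with dbcAMP, a log2 change of 0.67 with a standard error of 0.102 (edgeR adjusted p = 0.000213).

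Rps18, a protein of the head of the small subunit, stood at 454, 444 and 446 CPM, then 694, 788 and 717, then 347, 458 and 442. It rose 1.57-fold (log2 0.65, SE 0.106, edgeR adjusted p = 0.000354), and its undifferentiated libraries differed by only 5.09 CPM (SD). Rpl18, another large subunit protein, stood at 259, 245 and 259 CPM in undifferentiated, 378, 405 and 405 in differentiated and 215, 263 and 266 in dedifferentiated libraries. Its rise was 1.49-fold (log2 0.58, SE 0.0887, edgeR adjusted p = 0.000226). Again the differentiated libraries stood clear of both other stages.

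Rpl4, a large subunit protein that lines the exit tunnel of the growing chain, went from 608, 640.2 and 624 CPM to 848, 933 and 925, a 1.38-fold rise (log2 0.47, SE 0.0889, edgeR adjusted p = 0.000993). Rps6, the small subunit protein phosphorylated by S6 kinase, went from 485, 486 and 486 CPM to 655, 729 and 711. Its log2 change was 0.46 with a standard error of 0.121 (edgeR adjusted p = 0.00713). Rps6 was singled out after its values were seen, because it also belongs to the mTOR list below.

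**Figure D2:**
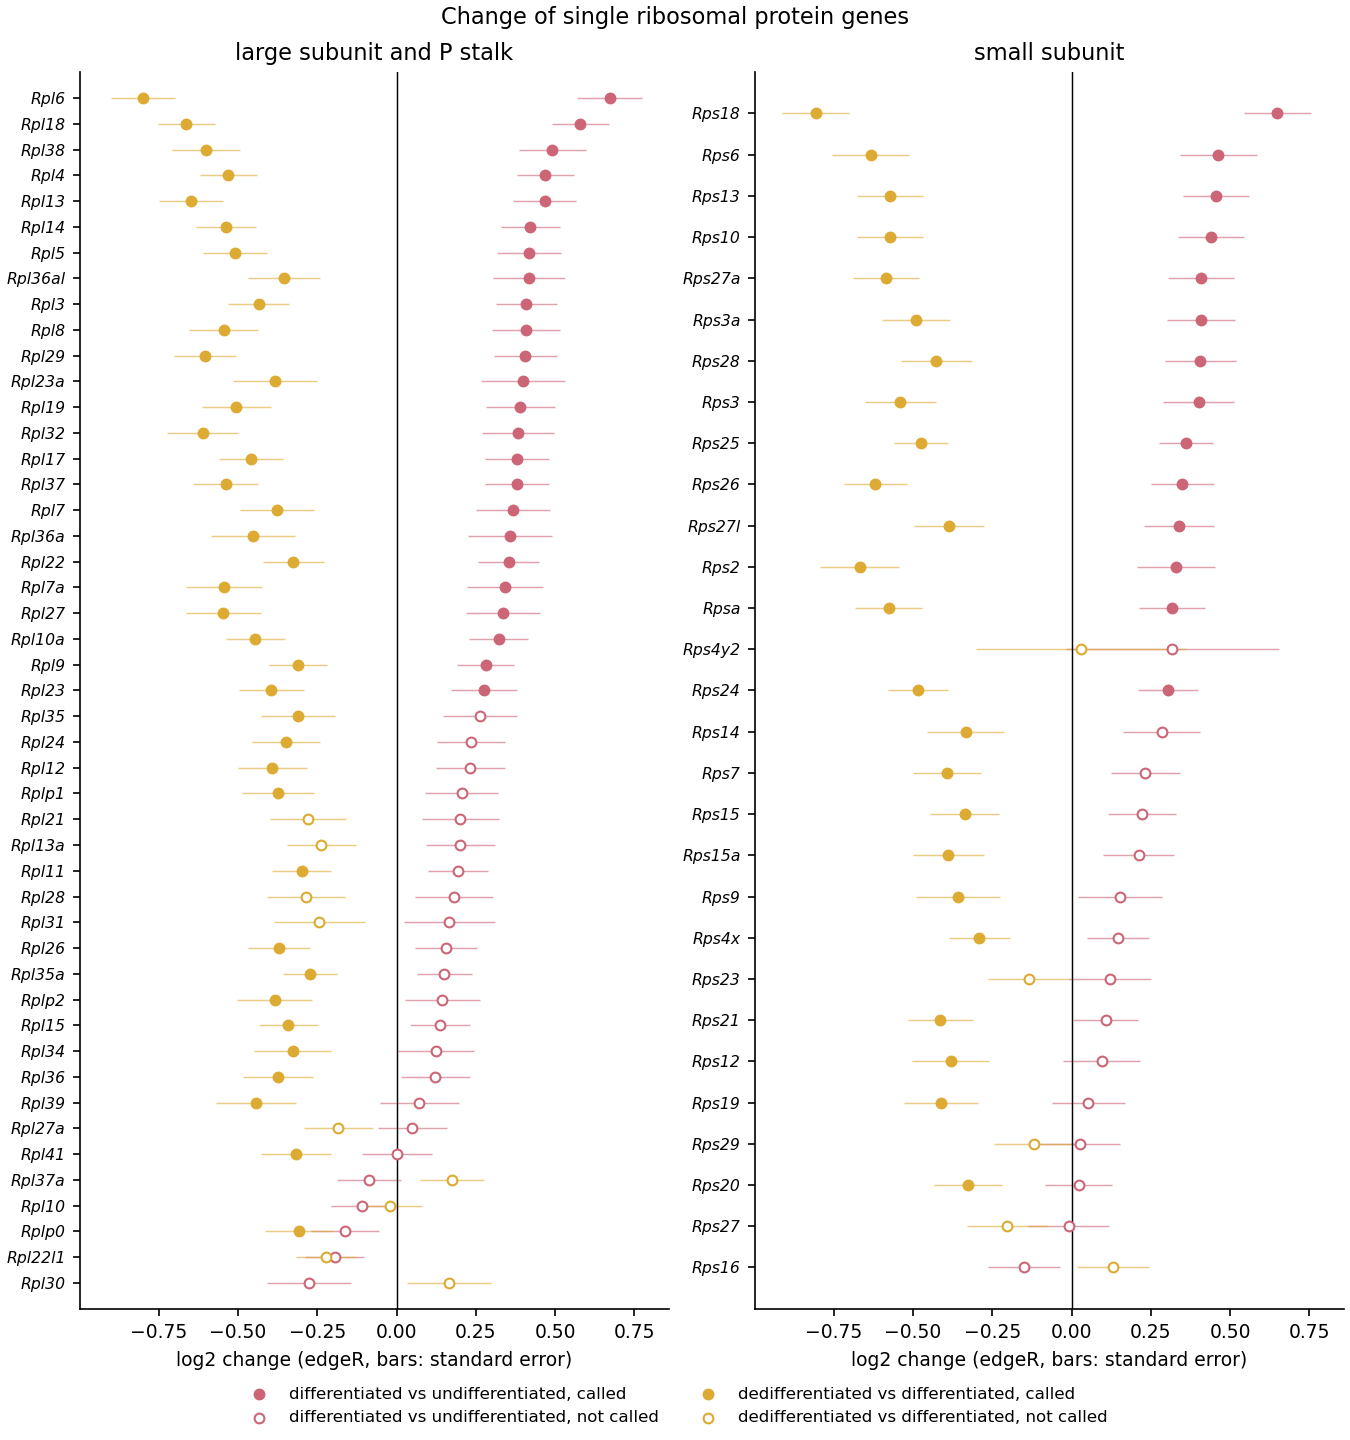
Log2 change of 76 of the 81 tested members (horizontal axis; bars are standard errors from edgeR), ordered by the change with dbcAMP, for large subunit and P stalk genes on the left and small subunit genes on the right. Red marks compare differentiated with undifferentiated cells and yellow marks dedifferentiated with differentiated cells; filled marks passed the test. Most rows have red right of 0 and yellow left of 0, and Rpl30, Rpl37a and Rps16 have the opposite order without passing the test.

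The second comparison asked what followed when dbcAMP was withdrawn. Of the 81 tested members 66 fell and 0 rose in dedifferentiated against differentiated cells (edgeR, adjusted p under 0.05), while 23.2% of all tested genes fell and 23.2% rose. The median log2 change was -0.39, against -0.007 over all genes, and 77 members were below 0. In 69 members all 3 dedifferentiated libraries were below all 3 differentiated ones, against 30.2% of all tested genes. The count of members higher was also 0 at an unadjusted p under 0.05 and by DESeq2. This comparison shares its differentiated libraries with the first, so the counts of the 2 are not independent. Without dedifferentiated replicate 1 the counts were 51 lower and 2 higher, against 20.8% and 22.2% of all genes then tested, and the median was -0.27.

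By subunit, 36 of 45 large subunit genes, 27 of 33 small subunit genes and 3 of 3 P stalk genes fell. These counts were 27, 22 and 2 without dedifferentiated replicate 1. Rplp0 was the P stalk gene that then did not pass, at -0.23 (edgeR adjusted p = 0.107) against -0.31 with all libraries. Rpl6 fell by 0.80 on the log2 scale (SE 0.102, edgeR adjusted p = 0.000117). Rps18 fell by 0.81 (SE 0.106, edgeR adjusted p = 0.000143) and Rpl18 by 0.66 (SE 0.0888, edgeR adjusted p = 0.000163). From undifferentiated to dedifferentiated cells their log2 changes were -0.13, -0.16 and -0.08, with standard errors of 0.102, 0.106 and 0.0887, and none passed the test.

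Rpl13, also of the large subunit, stood at 426, 412 and 394 CPM in undifferentiated, 569.9, 633 and 575 in differentiated and 324, 406 and 395 in dedifferentiated libraries. It fell by 0.65 on withdrawal (SE 0.0994, edgeR adjusted p = 0.000413). Dedifferentiated replicates 2 and 3 lay among the undifferentiated libraries, and replicate 1 lay below them. Without replicate 1 the change of Rpl6 on withdrawal was -0.69, of Rps18 -0.68, of Rpl18 -0.56 and of Rpl13 -0.54, and all 4 passed the test.

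**Figure D3:**
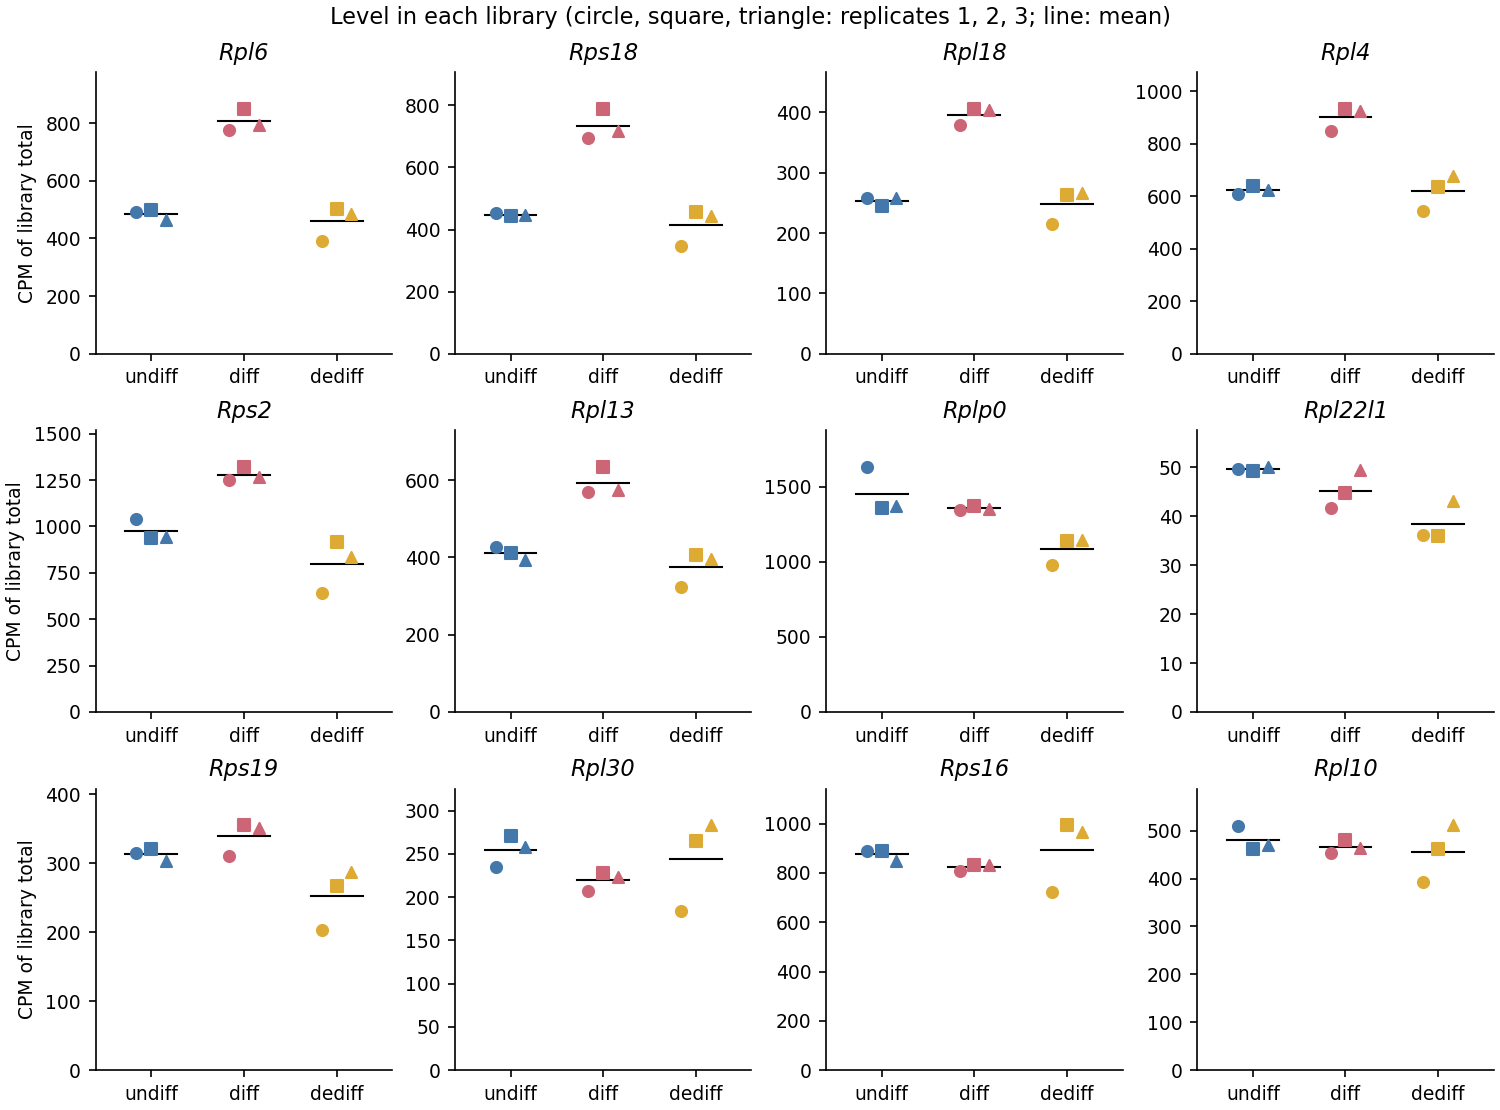
Level of 12 members in each library (CPM of the library total, vertical axes from 0), by stage; circles, squares and triangles are replicates 1, 2 and 3, and the line is the mean. Rpl6, Rps18, Rpl18, Rpl4, Rps2 and Rpl13 are highest in all 3 differentiated libraries, and Rpl30, Rps16 and Rpl10 show no rise. Rplp0 and Rps19 are lowest in the dedifferentiated libraries. Rpl22l1 has its lowest mean there, with libraries that overlap the differentiated ones.

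The third comparison set dedifferentiated against undifferentiated cells. Of the 81 tested members 6 were lower and 0 higher, against 13.3% and 16.1% of all tested genes. Among the 6 were Rpl22l1, Rplp0, Rps19, Rps21 and Rpl39. At an unadjusted p under 0.05 edgeR took 13 as lower and 0 as higher, against 4190 of all 10372 tested genes in either direction. DESeq2 called 12 lower and 0 higher, against 16.3% and 15.5% of all genes. The median log2 change was -0.13, against 0.02 over all genes, and 76 members were below 0. In 11 members all dedifferentiated libraries were below all undifferentiated ones, against 17.1% of all tested genes. Without dedifferentiated replicate 1 the median was -0.05 and 3 members were lower, Rpl22l1, Rplp0 and Rps19.

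Rplp0, the scaffold protein of the P stalk, differed most between these stages. It stood at 1630.0, 1360.0 and 1369 CPM in undifferentiated, 1347, 1374 and 1352 in differentiated and 979.5, 1138 and 1145 in dedifferentiated libraries. All 3 dedifferentiated libraries lay below the other 6. Its log2 change from undifferentiated to dedifferentiated cells was -0.47 (SE 0.107, edgeR adjusted p = 0.00757), and -0.42 without dedifferentiated replicate 1 (edgeR adjusted p = 0.0163). The other P stalk genes, Rplp1 and Rplp2, changed by -0.17 and -0.24 and did not pass the test.

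Rpl22l1, a paralog of Rpl22 that can take its place in the large subunit, had its lowest mean after withdrawal. It stood at 49.6, 49.2 and 50.0 CPM, then 41.6, 44.8 and 49.3, then 36.2, 35.9 and 43.0 across the stages. The difference from undifferentiated to dedifferentiated cells was -0.42 (SE 0.0942, edgeR adjusted p = 0.00722), and the step to each next stage, -0.20 and -0.22, did not pass the test. Rplp0 and Rpl22l1 were the 2 of the 6 that passed in each of the 9 fits that left out 1 library.

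Rps19, a small subunit protein mutated in Diamond-Blackfan anaemia, stood at 315, 320.3 and 304 CPM in undifferentiated, 311, 355 and 352 in differentiated and 203, 268 and 287 in dedifferentiated libraries. The dedifferentiated libraries lay below all others, with replicate 1 far the lowest. Its change from undifferentiated to dedifferentiated cells was -0.36 (SE 0.116, edgeR adjusted p = 0.0392). Rps21 changed by -0.31 (edgeR adjusted p = 0.0445) and Rpl39, which sits at the exit of the peptide tunnel, by -0.37 (edgeR adjusted p = 0.0474). Without dedifferentiated replicate 1, Rps21 and Rpl39 did not pass, with edgeR adjusted p of 0.0585 and 0.0985.

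The most abundant members by mean CPM, which is not corrected for length, were Rplp0, Rps2, Rpl7, Rps16 and Rpl3. Rps2, a small subunit protein near the entry of the messenger RNA, stood at 1042, 935 and 944 CPM, then 1248, 1319 and 1267, then 643, 915 and 835. It rose by 0.33 with dbcAMP (SE 0.123, edgeR adjusted p = 0.0389) and fell by 0.67 on withdrawal (SE 0.124, edgeR adjusted p = 0.00137). All 3 dedifferentiated libraries lay below the undifferentiated ones, but the change of -0.34 did not pass (edgeR adjusted p = 0.0620).

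Rpl7, a large subunit protein, stood at 818, 804 and 809.6 CPM, then 1008, 1115 and 1152, then 669.9, 881 and 951. Rpl3, which lies by the peptidyl transferase centre, stood at 716, 728 and 768 CPM, then 932, 1077 and 1057, then 650.4, 777 and 822. Both rose with dbcAMP, by 0.37 (SE 0.118, edgeR adjusted p = 0.0199) and 0.41 (SE 0.0963, edgeR adjusted p = 0.00383). Both fell on withdrawal, by 0.38 and 0.43. With dedifferentiated replicate 1 left out, the change of Rpl7 was -0.23 (edgeR adjusted p = 0.0441). Their dedifferentiated libraries overlapped the undifferentiated ones.

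A few members did not rise with dbcAMP. The log2 change was below 0 in 7 tested members, Rpl30, Rpl22l1, Rplp0, Rps16, Rpl10, Rpl37a and Rps27, at -0.28, -0.20, -0.16, -0.15, -0.11, -0.09 and -0.009, and none of the 7 passed the test in the model with stage as its only term. Apart from Rplp0, Rps16 and the paralog pairs, they were singled out after their values were seen. Rps16, a small subunit protein, stood at 888, 890.0 and 847 CPM, then 807, 833 and 831, then 723, 993 and 968. All its differentiated libraries lay below the undifferentiated ones, and its dedifferentiated libraries spanned both.

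Rpl30 showed a like order of libraries. It stood at 234, 271 and 258 CPM in undifferentiated, 207, 227 and 224 in differentiated and 184, 264 and 283 in dedifferentiated libraries. Dedifferentiated replicate 1 enters both the shared estimate of spread and the scaling. Leaving it out moved the median change with dbcAMP over all tested genes from 0.05 to 0.02. The change with dbcAMP then passed the test for Rpl30 (-0.31, edgeR adjusted p = 0.00370), Rps16 (-0.18, edgeR adjusted p = 0.0424) and Rpl22l1 (-0.23, edgeR adjusted p = 0.0495). The parts of spread and scaling in these calls were not tested. On withdrawal Rpl30 and Rps16 then rose, by 0.34 (edgeR adjusted p = 0.00639) and 0.27 (edgeR adjusted p = 0.0174). With the 10 most abundant genes left out of the scaling, Rpl22l1 passed with dbcAMP (-0.24, edgeR adjusted p = 0.0490). With all 9 libraries the changes of Rpl30 and Rps16 on withdrawal were 0.17 and 0.13 and did not pass.

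Rpl10, a late-joining protein of the large subunit, stood at 509, 461 and 470.4 CPM, then 453, 480.3 and 463, then 394, 462 and 511. Its libraries overlapped in all 3 comparisons. Rpl41, the shortest of the proteins, changed by 0.001 with dbcAMP and by -0.32 on withdrawal (edgeR adjusted p = 0.0363). Its change on withdrawal was -0.18 without dedifferentiated replicate 1 and did not pass (edgeR adjusted p = 0.0942). Rpl10 and Rpl41 were chosen after their values were seen.

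Paralog forms were compared with their parent genes. Rpl22, the parent of Rpl22l1, stood at 119, 117 and 129.8 CPM, then 149.8, 173 and 166, then 111, 143 and 132. It rose by 0.35 with dbcAMP (SE 0.0963, edgeR adjusted p = 0.00871) and fell by 0.33 on withdrawal (edgeR adjusted p = 0.0180), while Rpl22l1 changed by -0.20 and -0.22. The withdrawal change of Rpl22 was -0.22 without dedifferentiated replicate 1 and did not pass (edgeR adjusted p = 0.0564). The difference between the 2 genes was not tested.

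Rpl36al stood at 67.9, 66.4 and 67.1 CPM, then 93.2, 92.6 and 94.9, then 59.3, 85.4 and 73.3. It rose by 0.42 (edgeR adjusted p = 0.00866) and its parent Rpl36a by 0.36 (edgeR adjusted p = 0.0370). On withdrawal they fell by 0.35 and 0.45. For Rpl36al the change on withdrawal was -0.22 without dedifferentiated replicate 1 and did not pass (edgeR adjusted p = 0.0756), and that of Rpl36a was -0.28 and did (edgeR adjusted p = 0.0205). The signs of parent and paralog were the same in both comparisons.

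Rps27l, a paralog known as a p53 target, stood at 56.0, 60.2 and 54.5 CPM, then 80.1, 69.6 and 75.3, then 47.8, 62.3 and 60.5. It rose by 0.34 with dbcAMP (edgeR adjusted p = 0.0210) and fell by 0.39 on withdrawal (edgeR adjusted p = 0.0147). Its parent Rps27 stood at 203, 236 and 195 CPM, then 221, 241 and 196, then 155, 205 and 207, with libraries that overlapped in every comparison. Rps27 changed by -0.009 and -0.20 and did not pass.

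Rps4x, on the X chromosome, stood at 679.9, 676 and 673 CPM, then 717, 831 and 797, then 548, 674 and 679. All its differentiated libraries lay above the undifferentiated ones, but the change of 0.15 did not pass (edgeR adjusted p = 0.214), and the fall of 0.29 on withdrawal did (edgeR adjusted p = 0.0304). Leaving out dedifferentiated replicate 1 gave -0.19 on withdrawal, which did not pass (edgeR adjusted p = 0.0857). The low-level copy Rps4y2 lay between 1.37 and 2.96 CPM in all 9 libraries and passed no test. Rpl3l had at most 1 count in a library and Rpl39l had 0 in all 9, so neither entered the test, and a count of 0 allows up to 0.298 CPM in the shallowest library. Rpl3 and Rpl39, their parents, are described above.

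Reads of ribosomal protein genes can match near-identical processed copies elsewhere in the genome. The RefSeq gene table of assembly GRCr8 names 194 genes in the form of a ribosomal protein symbol followed by l and a number. Of these 1 is in the count table, the paralog Rpl22l1 described above. How reads of processed copies were assigned is not given in the sources used here, and levels of members with copies are uncertain to that extent. Estimated counts were fractional, a sign of reads shared between rows, in all 9 libraries for Rpl17 and Rpl37a, in 3 for Rpl7a and in 2 for Rpl8.

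Rpl37a, a zinc finger protein of the large subunit, was the clearest case of shared reads. It stood at 171, 176 and 175 CPM, then 145, 185 and 184, then 201, 199.9 and 173. The row of its pseudogene Rpl37a-ps1 held 7.72 CPM in dedifferentiated replicate 1 and between 67.7 and 134 CPM in the other 8 libraries. With both rows summed, a choice made after seeing the data, the change with dbcAMP turned from -0.09 to 0.14 and that on withdrawal from 0.18 to -0.20, with no call in either case.

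The region around the start of transcription is shown for 10 members, since the TOP motif at that place is the feature the family is known for. RefSeq promoters of GRCr8 matched 66 of the 83 members; Rpl15, Rpl23a, Rpl27, Rpl30, Rpl32, Rpl36al, Rpl39l, Rpl7, Rpl8, Rps20, Rps25 and Rps29 were among those with no entry. Each line gives 30 bases of the gene's strand, 5′ to 3′, with the annotated start at base 16 and the longest uninterrupted run of C and T in capitals. The first 5 are the matched members with the largest rise with dbcAMP, the last 5 those with the lowest change.
Rpl6, chr12:41011676-41011705, minus strand: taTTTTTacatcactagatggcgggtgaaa
Rps18, chr20:4933730-4933759, plus strand: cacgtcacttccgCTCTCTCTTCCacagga
Rpl18, chr1:105325255-105325284, plus strand: TCTggacctggtctagcaggaggcgccatc
Rpl38, chr10:100200420-100200449, plus strand: cttcgTTCTTTTTCCgttgttcggtgctcg
Rpl4, chr8:73566462-73566491, plus strand: taagTTCTTCCTTTTCCTgtgggagcagcc
Rpl22l1, chr2:113683181-113683210, plus strand: gCTCCgtggatatccggttccgagttgcgc
Rplp0, chr12:46718376-46718405, minus strand: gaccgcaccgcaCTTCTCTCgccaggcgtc
Rps16, chr1:92770643-92770672, plus strand: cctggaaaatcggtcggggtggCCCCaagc
Rpl10, chrX:157205835-157205864, plus strand: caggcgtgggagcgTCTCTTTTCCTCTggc
Rpl37a, chr9:81748076-81748105, plus strand: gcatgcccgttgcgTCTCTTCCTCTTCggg

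Long pyrimidine runs occurred in both groups. The longest run was 5, 11, 3, 10 and 14 bases in Rpl6, Rps18, Rpl18, Rpl38 and Rpl4, and 4, 8, 4, 13 and 13 bases in Rpl22l1, Rplp0, Rps16, Rpl10 and Rpl37a. In Rps18, Rpl4, Rplp0, Rpl10 and Rpl37a the run covers the annotated start, and in Rpl38 it ends before it. The start shown for Rpl6 lies 1066 bases inside the outermost start RefSeq gives for that gene. In the other genes shown this distance is at most 21 bases, in Rpl38. The Rpl6 window may therefore miss the start used in these cells.

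Over all matched members, 24 of 66 (36.4%) had at the annotated start a C followed by at least 4 more bases that were all C or T, read on the gene's strand alone, against 2.63% of the 33469 RefSeq promoters. With such a run beginning within 10 bases of the start on either side, the shares were 74.2% of members (49) and 28.9% of all promoters. Only 30 of the 66 entries use the outermost start RefSeq gives for the gene, and the start used in these cells was not measured. Among tested members, the 24 with the run at the start had a median log2 change of 0.25 with dbcAMP, and 10 of them rose. The 41 without it had a median of 0.30, and 21 rose. On withdrawal the medians were -0.34 and -0.41, with 19 and 34 members lower. The medians were -0.22 and -0.27 without dedifferentiated replicate 1, with 12 and 29 lower. These are descriptions of annotated letters, with no test.

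Other genes of the translation apparatus were counted from lists of known members. Their counts stand against the 31.7% of all tested genes that rose and 27.9% that fell with dbcAMP, and the 23.2% that rose and 23.2% that fell on withdrawal. Of 19 tested elongation factor genes and other TOP messages, 9 rose and 1 fell with dbcAMP, and 12 fell and 0 rose on withdrawal, with medians of 0.29 and -0.37. Eef1a1, which brings aminoacyl-tRNA to the ribosome, went from 10846, 10485 and 10250.0 CPM to 13353, 13727 and 13963 and back to 9010.4, 11238 and 11176. Hnrnpa1, an RNA-binding splicing factor with a TOP message, fell by 1.08 on withdrawal (SE 0.120, edgeR adjusted p = 4.36e-05), more than any ribosomal protein gene. Pabpc1, the poly(A)-binding protein, went the other way with dbcAMP. It went from 1315, 1123 and 1091 CPM to 818, 813 and 852, a fall of 0.57 (SE 0.0966, edgeR adjusted p = 0.000454). After withdrawal it stood at 709.8, 718 and 725 CPM, still lower than in undifferentiated cells (edgeR adjusted p = 0.000211).

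Fau, which encodes Rps30, lay between 248 and 329.8 CPM in all 9 libraries and passed no test.

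Ribosome assembly factors moved further than the ribosomal proteins themselves in the medians. Of 37 tested, 29 rose and 3 fell with dbcAMP, and 28 fell and 1 rose on withdrawal, with medians of 0.59 and -0.65. Pes1, a scaffold of large subunit assembly, went from 99.9, 99.8 and 100.0 CPM to 276, 296 and 252 and then to 136, 145 and 136. It rose 2.63-fold with dbcAMP (log2 1.40, SE 0.0815, edgeR adjusted p = 1.85e-07) and remained 1.35-fold above undifferentiated cells after withdrawal (edgeR adjusted p = 0.00269). Ddx21, a nucleolar helicase, rose by 0.90 and fell by 1.16. Sbds, which releases Eif6 from the new large subunit, differed from the rest of the list: it rose with dbcAMP (0.50) and again on withdrawal (0.32, edgeR adjusted p = 0.0113). Dkc1, Las1l and Riok1 were the 3 that fell with dbcAMP.

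RNA polymerase I, which transcribes the large ribosomal RNAs, was mixed. Of 14 tested genes 5 rose and 1 fell with dbcAMP, with a median of -0.11. The share that rose, 35.7%, was near the 31.7% of all tested genes. The catalytic subunits rose: Polr1a by 0.99 (SE 0.0955, edgeR adjusted p = 7.39e-06) and Polr1b by 1.27 (SE 0.132, edgeR adjusted p = 1.32e-05). Ubtf, the factor that opens ribosomal DNA for transcription, fell by 0.33 with dbcAMP (edgeR adjusted p = 0.0101) and rose by 0.37 on withdrawal (edgeR adjusted p = 0.00873). The rows for ribosomal RNA itself took 1.69% ± 0.0913 of counts in undifferentiated, 2.04% ± 0.357 in differentiated and 2.52% ± 0.452 in dedifferentiated libraries (SD, n = 3 each). Replicate 3, from another sequencing project, was lowest in each stage, at 1.61%, 1.63% and 2.06%. The single rows differed. Rn45s rose by 0.45 with dbcAMP (edgeR adjusted p = 0.0104) and changed by -0.29 on withdrawal, without a call. Rn28s passed only between the end stages (0.65, edgeR adjusted p = 0.0286), and Rn18s in no comparison. Scaling the libraries without these rows, a choice made after seeing the data, gave 39, 66 and 6 called members in the 3 comparisons, as with them.

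Initiation factors gave 14 higher and 2 lower of 25 with dbcAMP, and 16 lower and 2 higher on withdrawal, with medians of 0.37 and -0.38. Eif5a, the hypusinated factor that helps the ribosome past difficult peptide bonds, rose by 0.72 and fell by 0.87. Eif2b3, a subunit of the exchange factor of Eif2, fell by 0.47 with dbcAMP (edgeR adjusted p = 0.00753).

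The regulators of TOP messages and of ribosome production, a list that also holds Rps6, gave 8 higher and 4 lower of 19 with dbcAMP. These are 42.1% and 21.1%, against 31.7% and 27.9% of all tested genes. On withdrawal 4 rose and 7 fell, or 21.1% and 36.8%, against 23.2% each. Myc stood at 23.7, 87.4 and 41.0 CPM in undifferentiated, 183, 341 and 245 in differentiated and 24.6, 36.6 and 34.1 in dedifferentiated libraries. It rose 4.88-fold with dbcAMP (log2 2.29, SE 0.391, edgeR adjusted p = 0.000492) and fell 8.00-fold on withdrawal. Mycn rose by 1.58 and fell by 1.28.

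Genes that restrain mTOR moved in different directions. Ddit4 (REDD1), an inhibitor of mTORC1, stood at 11.4, 1.73 and 7.13 CPM, then 416, 217 and 352, then 25.0, 41.4 and 39.0, a log2 rise of 5.51 with dbcAMP (SE 0.473, edgeR adjusted p = 3.08e-06). Tsc2, part of the complex that holds mTORC1 in check, stood at 162, 194 and 198 CPM, then 70.4, 81.9 and 75.9, then 147, 126 and 125. It fell by 1.34 (SE 0.0983, edgeR adjusted p = 9.32e-07), and its partner Tsc1 fell by 0.44 (edgeR adjusted p = 0.00686). No measure of mTOR activity or of translation was analysed here.

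**Figure D4:**
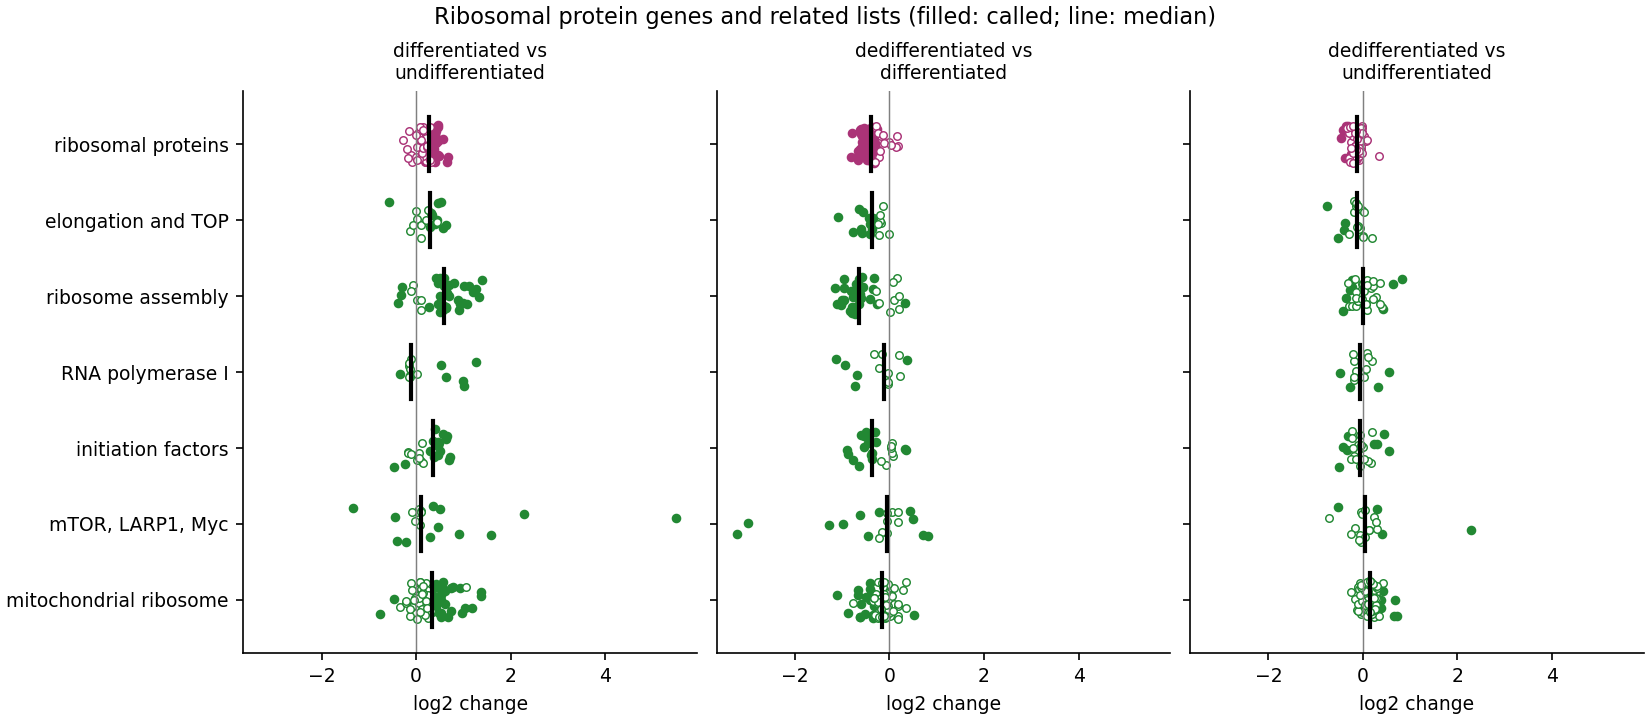
Log2 change of each tested gene (points, horizontal axis) in the ribosomal protein genes and 6 related lists, for the 3 comparisons; filled points passed the test and the black line is the list's median. The ribosomal protein genes form the tightest column near 0.28, -0.39 and -0.13, and the assembly factors reach medians of 0.59 and -0.65.

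Mitochondrial ribosomal protein genes, which encode the separate ribosome of mitochondria, served as the most similar group. Of 68 tested, 34 rose and 2 fell with dbcAMP, with a median of 0.34. On withdrawal 17 fell and 1 rose, with a median of -0.15, against 66 and -0.39 in the cytosolic group. The 25.0% of mitochondrial members that fell were near the 23.2% of all tested genes. Without dedifferentiated replicate 1, 12 fell and 2 rose, or 17.6% and 2.94%, against 20.8% and 22.2% of all genes then tested. From undifferentiated to dedifferentiated cells 7 rose and 0 fell, with a median of 0.15, against 0 and 6 in the cytosolic group. The 10.3% of mitochondrial members that rose and the 7.41% of cytosolic members that fell were below the shares of all tested genes, 16.1% and 13.3%. The difference between the groups was not tested, since genes are not replicates. Mrps35 went from 22.5, 23.4 and 26.4 CPM to 64.3, 68.8 and 60.9 and then to 32.1, 29.3 and 27.5. The mitochondrial group's share of counts was 0.147% ± 0.00288, 0.189% ± 0.00265 and 0.166% ± 0.00893 (SD, n = 3 each).

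Counts of called members depended on single libraries more than their direction did. Leaving out each of the 9 libraries in turn gave 25 to 49 members higher and 0 to 3 lower with dbcAMP, and 45 to 66 lower and 0 to 2 higher on withdrawal. Over all tested genes in these fits, 26.8% to 31% rose with dbcAMP and 18.4% to 24.7% fell on withdrawal. Between the end stages 9.04% to 13.7% of all tested genes were lower. The lowest count with dbcAMP, 25 of 81, came without undifferentiated replicate 3. It was near the share of all tested genes that rose in that fit, 28.5%. In all 9 fits, 22 of the 39 and 41 of the 66 calls were kept. The members kept in both included Rpl6, Rps18, Rpl18, Rpl4, Rpl13, Rpl3, Rpl5 and Rps6. For dedifferentiated against undifferentiated cells the count was 2 without any 1 of the undifferentiated libraries, or without differentiated replicate 2 or 3, and 3 without differentiated or dedifferentiated replicate 1.

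**Figure D5:**
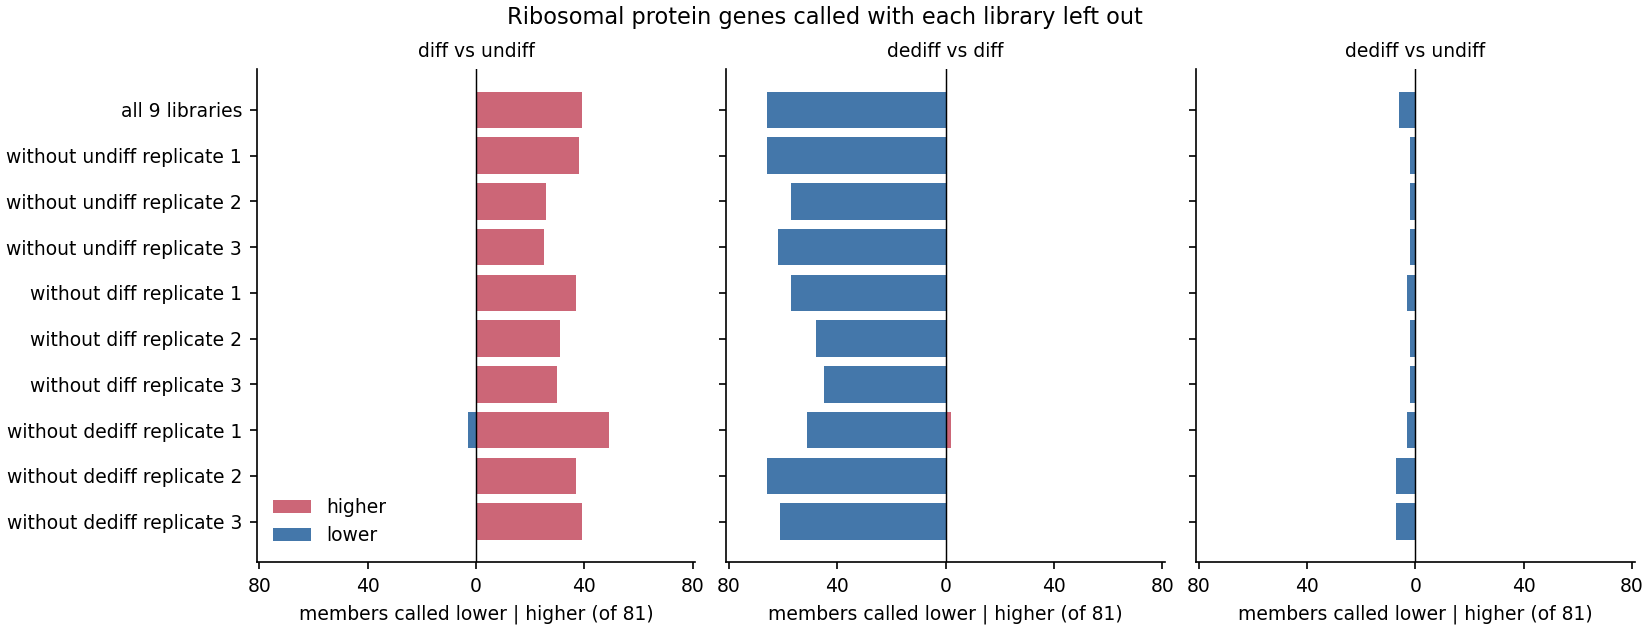
Number of the 81 tested members called higher (red, right) or lower (blue, left) in each comparison, with all 9 libraries and with each library left out in turn. The count with dbcAMP ranges from 25 to 49 higher, that on withdrawal from 45 to 66 lower, and that between the end stages from 2 to 7 lower. With 1 library left out, 26.8% to 31% of all tested genes rose with dbcAMP and 18.4% to 24.7% fell on withdrawal (not drawn).

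Replicate 3 of each stage came from another sequencing project than replicates 1 and 2, per the labels. Within the first project alone, with 2 libraries a stage, 8 of 81 members rose with dbcAMP and 33 fell on withdrawal. Between the end stages 2 were lower in dedifferentiated cells, and the 3 medians were 0.23, -0.46 and -0.23. Over all genes tested there, 22.3% rose with dbcAMP, 12% fell on withdrawal and 4.76% were lower between the end stages. The members called with dbcAMP and between the end stages were thus fewer than these shares. In the second project, with 1 library a stage and no test, 75 of 81 members were higher with dbcAMP and 77 lower on withdrawal, with medians of 0.33 and -0.30. From undifferentiated to dedifferentiated cells its median was 0.03, with 49 members above 0 and 32 below. The small decrease between the end stages was therefore present in the first project, which holds dedifferentiated replicate 1, and not in the second.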

How the data were processed

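Of the series' libraries the 9 of cell messenger RNA were used. Their input was 10 ng of total RNA in a directional kit, per the labels' protocols. The deposited values are estimated counts per gene, which the authors made with Salmon, per the submitters' processing notes. The submitters' processing notes also name STAR, HISAT2 and DESeq2 1.26.0. The genome build and annotation are not given in the sources used here. Of the values 1.07% were fractional (by more than 0.001), and all were rounded to whole numbers for testing.

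Genes passing filterByExpr (minimum count 10) were scaled by TMM and tested with edgeR 4.0.16 in R 4.3.3. A quasi-likelihood model with stage as its only term was fitted to all 9 libraries, and p-values were adjusted by Benjamini-Hochberg over all 10372 genes at 0.05. The standard error is the log2 change divided by the square root of F. CPM values use library totals, and log2 changes the TMM scale. The test was checked on simulated data, drawn independently for each gene. These held no shift shared by many genes of a library, as seen in dedifferentiated replicate 1. The check therefore does not cover counts of called members under such a shift. Groups and replicate numbers come from the sample titles, with which a suffix in the table's column names disagrees.

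Members and lists were chosen with earlier results of these data known. Genes named were the 5 most abundant, up to 4 of smallest p in each direction and comparison, paralog forms with their parents, members below 1 CPM, and up to 3 of smallest p per list, direction and comparison; others named are single examples chosen after their values were seen. Sequences are from RefSeq, GRCr8. Alternatives, with DESeq2 1.42.0 among them, are in the closing section. Replicate libraries differed by more than sampling noise. Results of some genes are not reported here.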

Additional observations from a re-analysis of the deposited data

How the results depend on the processing

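The medians of the members kept their direction in every refitted alternative, and no change of direction was found among the results with a call. They moved by less than the pooled SD of the library medians, 0.134 on the log2 scale. Dedifferentiated replicate 1 widened that SD, with a median of 7.94 log2 CPM against 8.32 in replicates 2 and 3. Leaving it out moved the median from -0.39 to -0.27 on withdrawal and from -0.13 to -0.05 between the end stages. This limit therefore cannot judge the influence of that library. Alternatives that moved a count by over 1.5 times were these. The first sequencing project alone gave 8 members with dbcAMP, 33 on withdrawal and 2 between the end stages, with fewer libraries. In the same directions 22.3%, 12% and 4.76% of all genes tested there were called. The second project alone, 1 library a stage with no test, gave an end-stage median of 0.03 against -0.13, so that sign turned. Between the end stages, where 6 members were lower, library totals gave 2 and DESeq2 size factors 10. The DESeq2 Wald test gave 12 and scaling without the 10 most abundant genes 10. Over all genes tested in these settings, in that order, 10.9%, 15.1%, 16.3% and 15.2% were lower. Leaving out 1 library gave 25 to 52 calls with dbcAMP, 45 to 66 on withdrawal and 2 to 7 between the end stages. Apart from the first project, the cause was not tested. Taking the 10 most abundant other genes out of the denominator raised the mean share to 3.26% in undifferentiated and 4.07% in differentiated cells. Same-numbered libraries correlated by 0.0280 to 0.304 (mean 0.175, 9 pairs) and differently numbered ones by -0.0837 on average, and 15 of 18 checks found the best match with the own number, a hint of pairing from the data. Since the lowest correlation was near 0 and the labels name no source shared by each number (replicates 1 and 2 share a sequencing project), the model has no such block. With the replicate block 42 members were called with dbcAMP (41 higher, and Rpl30 lower at -0.28, edgeR adjusted p = 0.0468), 69 on withdrawal and 6 between the end stages. Over all genes in that fit, 32.5% rose and 28.5% fell with dbcAMP, 24.4% fell on withdrawal and 14.3% were lower between the end stages. Among single named genes over all alternatives, 187 values no longer passed the test (120 of them with 1 library left out), 36 newly passed and 0 reversed. A reversal was counted only where the main or the alternative fit had a call. The sign changes of Rpl37a summed with its pseudogene had none and are not among these. Denominators without mitochondrially encoded genes gave no value, since no such rows were found. Depth limits Rps4y2, Rpl3l and Rpl39l.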

Other observations

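Within a stage, ribosomal protein genes varied less between libraries than the median of all tested genes, except after dbcAMP withdrawal. All tested genes include many of low count, which vary more by sampling, and no set matched for level was compared. The median coefficient of variation of the 81 tested members was 3.74%, 6.24% and 15.0% in the undifferentiated, differentiated and dedifferentiated stage, against 10.9%, 9.55% and 10.5% for all tested genes. The most even was Rps6 in undifferentiated cells, at 485, 486 and 486 CPM. The high value in dedifferentiated cells moved with replicate 1, in which 78 of 81 members were the lowest of the 3.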
